A study of Mus musculus with 9 samples.

Results

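The genes described here are 49 listed genes of mitosis and of the G2/M transition, listed by name and by function, with earlier results of these data already known. Each was followed by 1 probe set, the brightest of the gene on average over the 9 arrays. Of the 49 genes 48 had a probe set assigned to 1 gene, out of 18193 such genes on the array, and all 48 were among the 10613 genes bright enough to be tested. The remaining gene, Ccnb1, was not analysed here. The arrays held RNA of NIH 3T3 cells, an immortal mouse line grown from embryonic fibroblasts, taken 5 days after the cells received a retroviral vector for a short hairpin RNA (shRNA). The 3 groups were cells with a control shRNA, with an shRNA against Ube2m and with an shRNA against Ube2f, each as 3 biological replicates. Ube2m and Ube2f are the E2 enzymes that pass the ubiquitin-like protein NEDD8 to cullins, around which many ubiquitin ligases are built, and the series asks how pairs of E2 and RING proteins choose among cullins. In all 3 groups, controls included, the growth label calls the cells NIH 3T3 expressing Ube2f, without saying whether a construct had been added. The labels name 1 shRNA per group and give neither its sequence nor the share of cells transduced.

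Entry into mitosis is driven by the kinase Cdk1 with its A- and B-type cyclins, held back by Wee1 and released by Cdc25 phosphatases. Plk1 and the Aurora kinases then build the spindle, the spindle checkpoint at the kinetochores restrains Cdc20 and the anaphase-promoting complex, and loss of securin frees separase to part the chromosomes. Most of these genes are transcribed in G2 and M and are quiet in resting cells. Their RNA is kept low early in the cycle by the DREAM complex and raised later by B-Myb and FoxM1, through promoter elements known as the cell cycle genes homology region (CHR) and the CCAAT box, which binds NF-Y. Fibroblast lines in culture divide continuously, so transcripts of mitosis are readily measured in them.

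Promoter sequences show what the genes share apart from their signals. RefSeq promoters on the mouse build GRCm38.p6, each running from 250 bases before the gene's start to 50 bases after it, were at hand for 40 of the 49 genes, with 43 promoters in all. The letters CCAAT, on either strand (ATTGG on the other), stood in 34 of these 43 promoters (79.1%), against 37.4% of all 32851 promoters of that length. The CHR letters TTTGAA or TTCGAA, also on either strand, stood in 34 as well (79.1%), against 19.2% of all promoters. Both motifs together were found in 31 of the 43 (72.1%), against 7.52% of all promoters. The median GC content was 59% in these promoters and 52.7% in all, and among all promoters between the lower and upper quartile of the mitotic ones (53.8% to 64.2% GC) both motifs stood in 5.23%. Genes of G1/S and DNA replication, listed separately, carried CCAAT in 58.3% of 48 promoters but the CHR letters in 20.8% and both in 10.4%. The promoters of 5 genes are printed as far as 120 bases before the start, 5′ to 3′ along the gene's own strand, with the motif letters in capitals. They were chosen to set 4 genes whose signal passed a test below beside Espl1, which passed none.
Cdk1 (chr10:69352913-69353032, minus strand): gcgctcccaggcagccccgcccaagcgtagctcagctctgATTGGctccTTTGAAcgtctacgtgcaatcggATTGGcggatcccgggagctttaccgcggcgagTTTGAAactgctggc
Kif11 (chr19:37376262-37376381, plus strand): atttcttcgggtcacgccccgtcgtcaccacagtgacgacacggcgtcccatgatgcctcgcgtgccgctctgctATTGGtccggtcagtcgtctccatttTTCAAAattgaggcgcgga
Top2a (chr11:99024190-99024309, minus strand): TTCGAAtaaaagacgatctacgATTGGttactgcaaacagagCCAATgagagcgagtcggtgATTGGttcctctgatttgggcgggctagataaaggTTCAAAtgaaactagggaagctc
Kif2c (chr4:117178773-117178892, minus strand): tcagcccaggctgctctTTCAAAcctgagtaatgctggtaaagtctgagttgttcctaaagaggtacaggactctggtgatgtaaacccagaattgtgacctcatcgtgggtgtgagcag
Espl1 (chr15:102296173-102296292, plus strand): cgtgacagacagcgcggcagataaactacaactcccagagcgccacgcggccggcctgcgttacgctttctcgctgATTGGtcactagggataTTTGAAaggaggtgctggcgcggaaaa
In Kif11 an inverted CCAAT box began 45 bases before the start and CHR letters, as TTCAAA, 19 bases before it. In Espl1 an inverted CCAAT box began 44 bases and CHR letters, as TTTGAA on the other strand from those of Kif11, 27 bases before the start. Cdk1 carried the pair in duplicate, with CCAAT at 80 and 48 and CHR at 71 and 15 bases before the start. Top2a carried 3 CCAAT boxes and 2 CHR motifs in the stretch. Kif2c had no CCAAT in it, and its CHR letters began 103 bases before the start. A match is a description of the letters and does not show that a factor was bound.

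Signals are MAS5 values on a linear scale, and differences are given as differences of log2(signal + 16). Calls rest on limma's moderated test with Benjamini-Hochberg adjustment over all 10613 genes and a threshold of 0.05. SE stands for the standard error of such a difference. The Ube2f signal checked its own hairpin. It read 2367, 2492 and 2757 in control, 3029, 3140 and 2700 with Ube2m shRNA, and 135, 118 and 144 with Ube2f shRNA, a log2 difference from control of -4.11 (SE 0.12, adjusted p = 7.45e-10). Ube2m had no probe set assigned to it alone, so its knockdown was not checked. Fibroblast markers were bright throughout, with 9 of 9 tested and a summed signal of 151223 to 196010 per array. Of these 9 markers 8 were below 0 in Ube2m against control, 1 of them past the threshold (Thy1, -0.70, SE 0.16, adjusted p = 0.0163). All 9 were below 0 in Ube2m against Ube2f, with 2 past it (Thy1, -0.67, adjusted p = 0.0114, and Pdgfrb, -0.51, adjusted p = 0.00928), and 0 passed in Ube2f against control. Endothelial markers summed to 89.6 to 140, with 0 of 6 tested, epithelial ones to 262 to 481, with 2 of 6, and macrophage ones to 747 to 1096, with 3 of 7, of which Cd14 was higher in Ube2m than in Ube2f (0.52, adjusted p = 0.0294). The part these markers had in the results was not tested. Replicate 3 of each group stood apart, with a median signal over the array of 63.8, 72.9 and 73.2 in control, Ube2m and Ube2f, against 53.1 to 58.3 on the other 6 arrays. Bacterial spike signals averaged 5090 and 5438 on control replicates 2 and 1 against 6826 to 8181 on the targeted arrays of the same numbers, while in replicate 3 control was above them, at 7386 against 5117 and 5317. Control replicate 1 also had a 3' to 5' beta-actin ratio of 1.82, against 1.24 to 1.35 on the others.

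Of the 48 genes 5 rose over control with Ube2m shRNA and 0 fell, and with Ube2f shRNA no gene of the list passed. The 5 were 2 kinesins, 1 kinetochore protein, 1 passenger complex protein and 1 chromosome protein, namely Kif20a and Kif2c, Spag5, Incenp and Cdca2, with log2 differences of 0.45 to 0.67. In that comparison 9.71% of all genes tested passed, 3.59% as higher and 6.12% as lower. The differences were above 0 in 43 of the 48 genes (89.6%), against 44.4% of all genes tested, with a median of 0.25 against -0.04. At an unadjusted p under 0.05, 22 were higher and 0 lower, where the shares of all genes were 9.27% and 15.5%. All 3 Ube2m arrays lay above all 3 control arrays for 28 genes and below them for 1, Anln, where 11.6% and 18.0% of all genes did so.

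**Figure D1:**
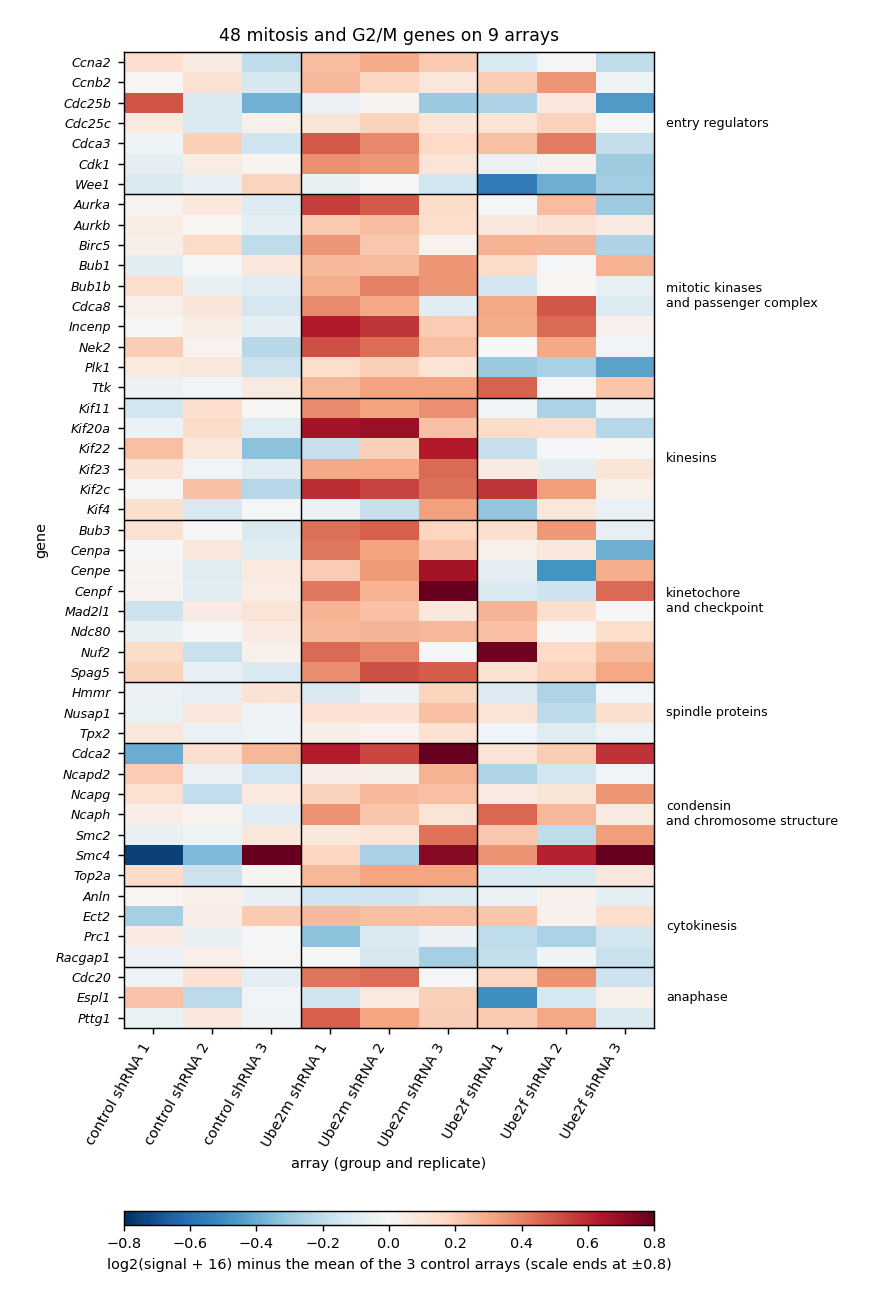
Heat map of the 48 genes (rows, in blocks by function) on the 9 arrays (columns), as log2(signal + 16) minus the mean of the 3 control arrays, with red for higher and blue for lower and the colour scale ending at ±0.8. The Ube2m columns are red in most rows, apart from cytokinesis genes such as Anln and Prc1, while Wee1 and Plk1 are blue in all 3 Ube2f columns.

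The shift was seen on each Ube2m array. The median of the 48 genes, taken as the deviation from the control mean, was 0.26, 0.27 and 0.21 on Ube2m replicates 1, 2 and 3. It was 0.02, 0.02 and -0.03 on the control arrays and 0.08, 0.06 and -0.02 on the Ube2f arrays, while the median of all genes tested lay between -0.05 and 0.03 on every array. The part of spike level and overall array signal in these medians was not tested. These are bulk samples, in which more dividing cells and more RNA per dividing cell cannot be told apart.

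**Figure D2:**
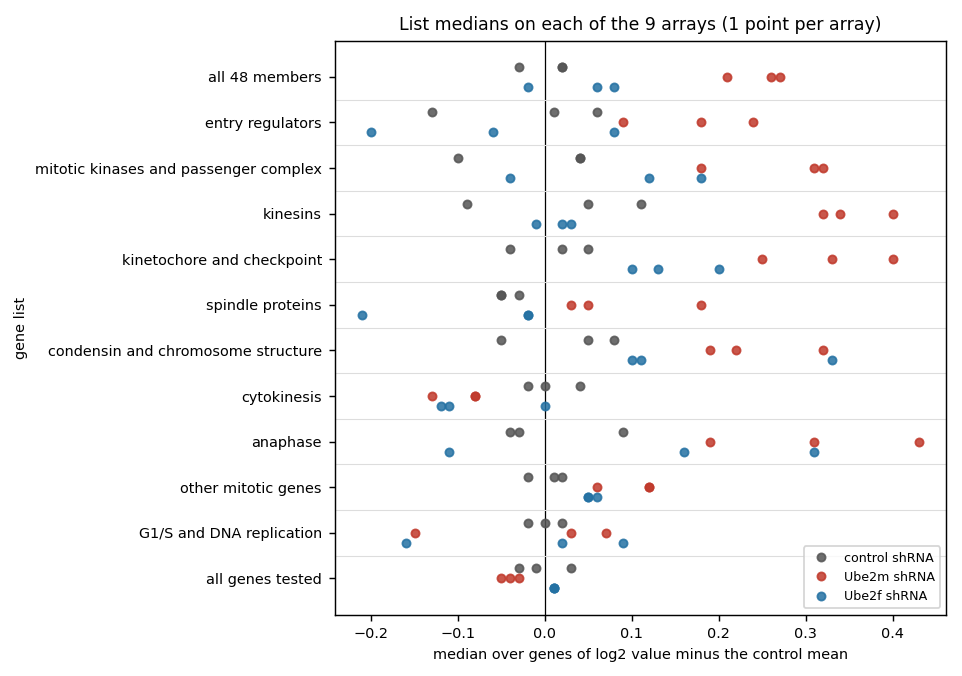
Median deviation from the control mean on each of the 9 arrays, in log2(signal + 16), for the 48 mitosis and G2/M genes, for other lists and for all genes tested. The 3 Ube2m arrays sit at 0.21 to 0.27 for the 48 genes, above every control and Ube2f array, while all genes tested stay between -0.05 and 0.03.

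In Ube2f against control 0 of the 48 genes passed in limma, where 5.19% of all genes did, 2.23% as higher and 2.96% as lower. At an unadjusted p under 0.05, 3 were higher and 2 lower, with 9.75% and 10.5% of all genes as the background. The differences were above 0 in 28 of 48 genes, with a median of 0.07 against 0.01 over all genes, and ran from -0.41 for Wee1 to 0.62 for Smc4. Set against each other, the targeted groups differed in 8 genes, all higher with Ube2m shRNA, where 15.8% of all genes passed, 6.37% as higher and 9.38% as lower. These were Plk1, Kif11, Bub1b, Kif20a, Ccna2, Cdk1, Top2a and Cenpa, and the median of the 48 was 0.18 against -0.04 over all genes. Unadjusted, 14 genes were higher and 0 lower, where 11.4% and 17.3% of all genes were. All 3 Ube2m arrays lay above all 3 Ube2f arrays for 16 genes and below them for 1, where 13.7% and 20.6% of all genes did so. The comparisons share arrays, so the 3 results are not independent of one another.

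The number of genes past the threshold depended strongly on the arrays used and on their scaling. Against control, leaving out single arrays gave 0 genes without Ube2m replicate 1 or 2, 1 without control replicate 1 (Spag5) or control replicate 3 (Cdca2), 2 without control replicate 2 and 3 without Ube2f replicate 1. The differences of these 5 genes stayed between 0.39 and 0.80, and each passed in 3 or 4 of the 9 fits. With each array centred on its own median 0 genes passed in any comparison. With the probe sets of each gene averaged 0 passed against control, and 4 passed between the hairpins, Kif20a and Plk1 of the 8 with Cdca2 and Wee1. Kif20a and Plk1 had 1 probe set each, so averaging could not change their differences. Cdk1 also had 1, and its adjusted p became 0.0542. In replicates 1 and 2 alone 13 rose and 0 fell with Ube2m shRNA, 3 rose and 1 fell with Ube2f shRNA, and 12 were higher and 1 lower in Ube2m than in Ube2f. With replicate 3 as a batch term in the fit the counts were 20 higher, 2 higher with 2 lower (Kif2c and Ncaph, Plk1 and Wee1), and 15 higher. Over all genes the share past the threshold was 20.0%, 13.8% and 25.6% in that fit, and 16.5%, 10.6% and 19.1% in replicates 1 and 2 alone, so that the counts for Ube2f against control were under the background in both. In Ube2m against Ube2f the 8 became 5 without control replicate 2, 2 without Ube2m replicate 1 or Ube2f replicate 1, and 1, Plk1, without Ube2m replicate 2. Over the 9 ways to leave out an array, Plk1 passed in 9, Bub1b in 7, Kif11 in 6, Kif20a in 5, Top2a in 4, Ccna2 and Cdk1 in 3 and Cenpa in 2. In Ube2f against control the count was 2 without control replicate 3, Smc4 higher and Plk1 lower.

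**Figure D3:**
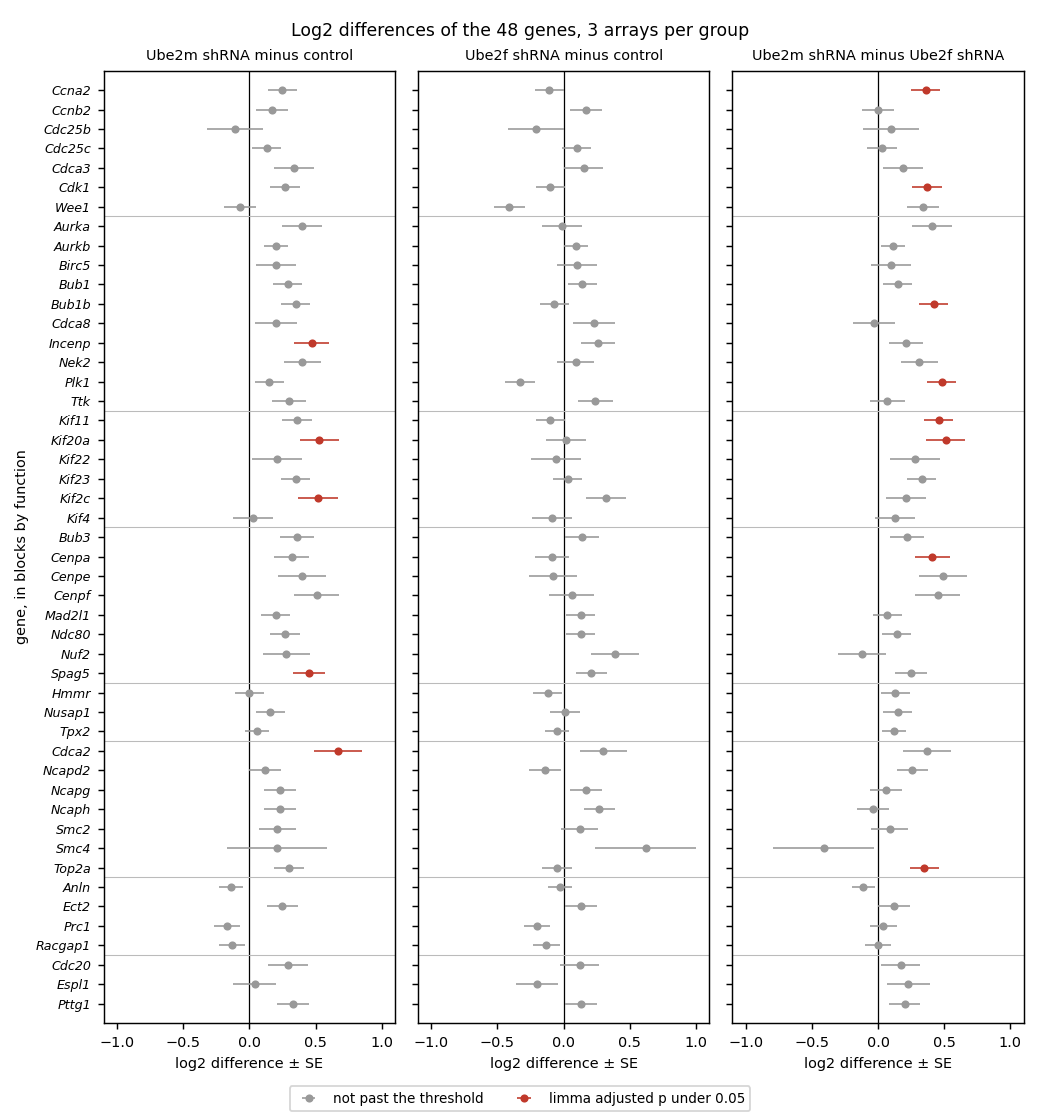
Log2 differences with their SE (bars) for the 48 genes in the 3 comparisons, each with 3 arrays per group, red where limma's adjusted p was under 0.05. Most points lie right of 0 in the panels for Ube2m against control and against Ube2f (43 of 48 in each), and those for Ube2f against control lie on both sides (28 above 0).

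Among the regulators of entry into mitosis, 0 of 7 passed against control with either hairpin in limma (unadjusted, 3 higher with Ube2m and 1 lower with Ube2f), and 2 differed between the hairpins. Of all genes 9.27% were higher with Ube2m and 10.5% lower with Ube2f without adjustment, and 15.8% passed between the hairpins. Cdk1, the kinase that starts mitosis, read 7606, 8343 and 8131 in control, 10332, 10192 and 8617 with Ube2m shRNA, and 7719, 8230 and 6570 with Ube2f shRNA. The Ube2m arrays lay above all others. Its log2 difference was 0.27 from control (SE 0.11, adjusted p = 0.157) and 0.37 from Ube2f (SE 0.11, adjusted p = 0.041). Ccna2, the A-type cyclin of S phase and G2, read 5325, 5087 and 4198 in control, 5743, 5968 and 5602 with Ube2m shRNA and 4451, 4801 and 4205 with Ube2f shRNA. Control and Ube2f overlapped and the Ube2m arrays were above both, by 0.25 over control (SE 0.11, adjusted p = 0.175) and 0.36 over Ube2f (SE 0.11, adjusted p = 0.0389). A second Ccna2 probe set gave 0.08 over control and 0.05 over Ube2f, and the average of both 0.21 over Ube2f (adjusted p = 0.31), so the call was lost. The B-type cyclin Ccnb2 gave 0.17 in both comparisons with control and 0.00 between the hairpins.

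Wee1, the kinase that inhibits Cdk1, went another way. It read 1237, 1284 and 1522 in control, 1289, 1330 and 1204 with Ube2m shRNA and 904, 1020 and 1102 with Ube2f shRNA. All 3 Ube2f arrays were below the other 6, and the difference from control was -0.41 (SE 0.12, adjusted p = 0.0689), the smallest adjusted p of the 48 genes in that comparison. A second Wee1 probe set gave -0.31. With replicate 3 as a batch term or with a replicate block Wee1 passed (adjusted p = 0.0166 and 0.0241), where 13.8% and 11.5% of all genes passed. It passed in 0 of the 9 fits that leave out 1 array (adjusted p = 0.0536 to 0.269). With each array centred on its own median it missed as well (adjusted p = 0.164). Of the Cdk1-activating phosphatases, Cdc25b gave -0.11 with Ube2m and -0.21 with Ube2f shRNA (SE 0.21 each), its control arrays alone spanning 616 to 1156, and Cdc25c gave 0.13 and 0.10. Cdca3, a substrate of the anaphase-promoting complex that takes part in mitotic entry, gave 0.34 (SE 0.15, adjusted p = 0.192) and 0.15.

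All 10 mitotic kinases and passenger complex genes lay above 0 in Ube2m against control, with a median of 0.30, and 1 passed. Of all genes 44.4% were above 0 there and 3.59% passed as higher. Incenp, the scaffold of the chromosomal passenger complex, read 5449, 5646 and 5156 in control, 8422, 8056 and 6231 with Ube2m shRNA and 6654, 7409 and 5548 with Ube2f shRNA. The Ube2m arrays were all above control but overlapped the Ube2f arrays. Its difference from control was 0.47 (SE 0.13, adjusted p = 0.0456) and that of Ube2f 0.26 (SE 0.13, adjusted p = 0.304). The Incenp probe set is of a kind that may match related transcripts. Without such probe sets the value was 0.19 (adjusted p = 0.358). The other passenger subunits gave 0.20 for the kinase Aurkb, 0.20 for Birc5 (survivin) and 0.20 for Cdca8 (borealin) in Ube2m, none past the threshold. These were below the 0.47 of Incenp but near its 0.19. The Aurkb and Cdca8 probe sets used were also of the kind that may match related transcripts.

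Plk1, the kinase of centrosome maturation, checkpoint recovery and cytokinesis, had the smallest adjusted p between the hairpins, though not the largest difference. It read 2384, 2403 and 2004 in control, 2493, 2573 and 2438 with Ube2m shRNA and 1831, 1884 and 1670 with Ube2f shRNA. Neither targeted group overlapped control, the Ube2m arrays lying above it and the Ube2f arrays below. The log2 differences were 0.15 for Ube2m (SE 0.11, adjusted p = 0.429) and -0.33 for Ube2f (SE 0.11, adjusted p = 0.0967), and between the hairpins 0.48 (SE 0.11, adjusted p = 0.00893). The last passed without any one of the 9 arrays (0.43 to 0.51), and missed with each array centred on its own median (adjusted p = 0.184). The difference of Ube2f from control passed with replicate 3 as a batch term (adjusted p = 0.0133), where 13.8% of all genes passed. It also passed with a replicate block (adjusted p = 0.024) and in replicates 1 and 2 alone (adjusted p = 0.0319). Of the 9 fits that leave out 1 array it passed in 1 (adjusted p = 0.0499 to 0.231). With each array centred on its own median it missed (adjusted p = 0.383).

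The checkpoint kinase-like protein Bub1b (BubR1) read 1540, 1340 and 1314 in control, 1709, 1848 and 1785 with Ube2m shRNA and 1252, 1412 and 1329 with Ube2f shRNA. The Ube2m arrays were above all others, by 0.35 over control (SE 0.11, adjusted p = 0.0581) and 0.42 over Ube2f (SE 0.11, adjusted p = 0.0182). A second Bub1b probe set gave 0.39 and 0.47. Another, too dim for a test, gave -0.91 and -0.66, and the average of the probe sets 0.08 over Ube2f (adjusted p = 0.873). The spindle pole kinase Aurka gave 0.40 over control (SE 0.15, adjusted p = 0.109) and 0.41 over Ube2f (adjusted p = 0.0764), its Ube2m arrays at 3961, 3788 and 2990 against 2736, 2856 and 2503. Nek2, which parts the centrosomes, gave 0.40 (SE 0.14, adjusted p = 0.0861), and the checkpoint kinases Bub1 and Ttk gave 0.29 and 0.30 over control, neither past the threshold. With Ube2f shRNA these 4 kinases gave -0.01, 0.09, 0.14 and 0.24 in that order, and none passed.

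Of the 6 kinesins 2 rose with Ube2m shRNA over control, where 3.59% of all genes did. Kif20a, the motor that brings the passenger complex to the central spindle, read 2538, 2904 and 2459 in control, 4184, 4236 and 3097 with Ube2m shRNA and 2907, 2900 and 2238 with Ube2f shRNA. Control and Ube2f overlapped and the Ube2m arrays were above both. It was 1.44-fold control (log2 difference 0.53, SE 0.15, adjusted p = 0.0378) and also passed against Ube2f (0.51, SE 0.15, adjusted p = 0.0307), the only gene of the 48 to pass in both. Kif2c, which removes tubulin from microtubule ends at centromeres, read 2368, 2812 and 2032 in control, 3591, 3474 and 3246 with Ube2m shRNA and 3556, 3012 and 2456 with Ube2f shRNA. The Ube2m arrays were above control, while the Ube2f arrays overlapped both. Its differences from control were 0.52 (SE 0.15, adjusted p = 0.0409) and, for Ube2f, 0.32 (SE 0.15, adjusted p = 0.246).

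Kif11, the motor that pushes the spindle poles apart, read 924, 1128 and 1032 in control, 1334, 1287 and 1326 with Ube2m shRNA and 1010, 859 and 1000 with Ube2f shRNA. Ube2m stood above both other groups, by 0.36 over control (SE 0.11, adjusted p = 0.0711) and 0.46 over Ube2f (SE 0.11, adjusted p = 0.0169). With its probe sets averaged Kif11 gave 0.36 over Ube2f (adjusted p = 0.228). Kif23, the motor of the centralspindlin complex, gave 0.35 over control (SE 0.11, adjusted p = 0.0583) and 0.33 over Ube2f (adjusted p = 0.0593). The chromokinesins Kif22 and Kif4 varied more between arrays, with 0.21 (SE 0.19) and 0.03 (SE 0.15) over control. Kif22 read 3233, 4194 and 5710 on the Ube2m arrays, across the control range of 2928 to 4352. The 2 other Kif22 probe sets gave 0.30 and 0.38 over control, one of them with 2396, 2443 and 2137 on the Ube2m arrays above control at 1980, 2076 and 1629.

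**Figure D4:**
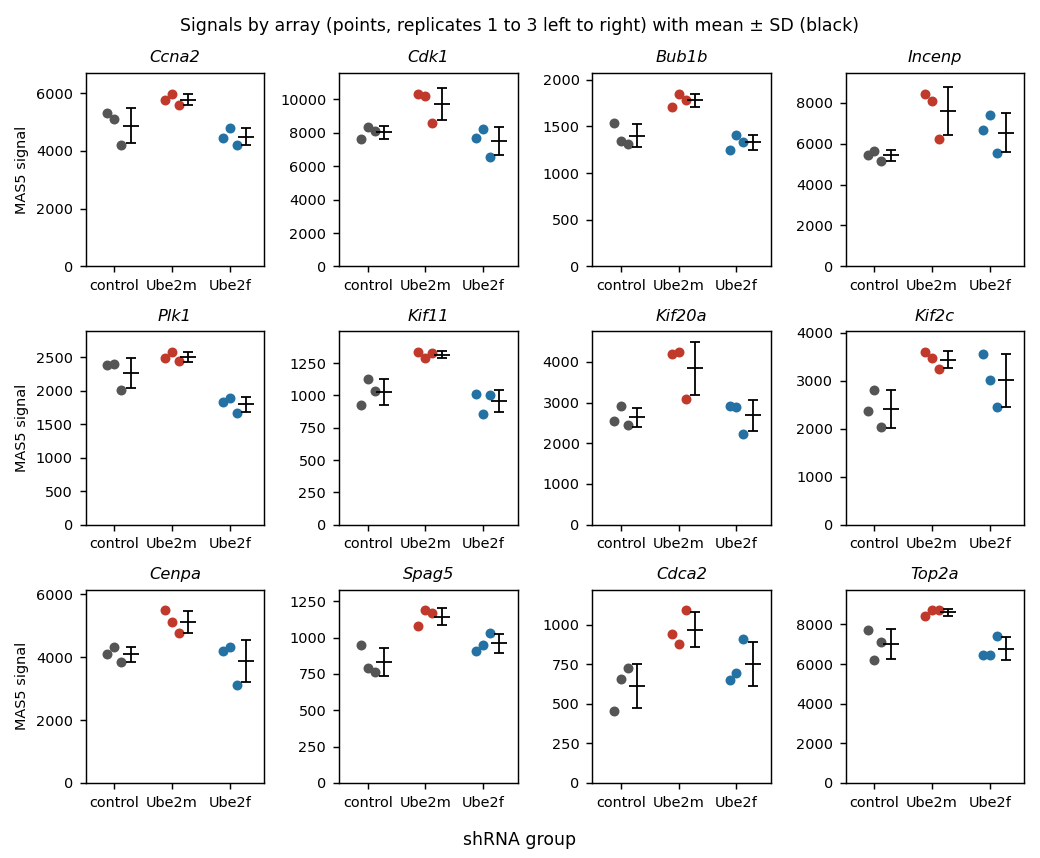
Signal (linear axis from 0) on each array for the 12 genes past the threshold in Ube2m against control or against Ube2f, with points for replicates 1 to 3 of a group from left to right and black bars for the group mean ± SD. The Ube2m arrays lie above all Ube2f arrays for Plk1, Kif11, Bub1b, Kif20a, Ccna2, Cdk1, Top2a and Cenpa, while control and Ube2f overlap for all of these but Plk1.

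The 8 kinetochore and checkpoint genes were all above 0 in Ube2m against control, at 0.20 to 0.51, and 1 passed. Of all genes 44.4% were above 0 there and 3.59% passed as higher. Spag5 (astrin), which helps to hold sister chromatids and align them on the spindle, passed. It read 946, 792 and 764 in control, 1079, 1187 and 1169 with Ube2m shRNA and 906, 947 and 1031 with Ube2f shRNA, so that the Ube2m arrays were above all others. The log2 difference was 0.45 (SE 0.12, adjusted p = 0.0296), and 0.29 (adjusted p = 0.192) without probe sets open to related transcripts. Cenpa, the histone variant that marks the centromere, read 4099, 4324 and 3836 in control, 5480, 5115 and 4760 with Ube2m shRNA and 4200, 4323 and 3111 with Ube2f shRNA. It passed between the hairpins (0.41, SE 0.13, adjusted p = 0.0458) and not against control (0.32, SE 0.13, adjusted p = 0.137). With its probe sets averaged Cenpa gave 0.19 between the hairpins (adjusted p = 0.659).

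Cenpf and Cenpe, large proteins of the outer kinetochore, gave 0.51 (SE 0.17, adjusted p = 0.0855) and 0.40 (SE 0.18, adjusted p = 0.181) over control. For both the replicate 3 array was the brightest of its group in all 3 groups. Cenpf read 1620, 1493 and 1660 in control, 2134, 1932 and 2811 with Ube2m shRNA and 1463, 1414 and 2186 with Ube2f shRNA. The checkpoint protein Bub3 gave 0.36 (SE 0.13, adjusted p = 0.0913) and its partner in the checkpoint Mad2l1 0.20. The microtubule-binding Ndc80 read 1075, 1084 and 1082 with Ube2m shRNA, above control at 857, 894 and 937, for a difference of 0.27 (SE 0.11, adjusted p = 0.139). Its binding partner Nuf2 gave 0.28 in Ube2m and 0.39 in Ube2f (SE 0.18, adjusted p = 0.231), the latter with arrays at 1118, 727 and 778 against 719, 573 and 664.

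The spindle proteins gave small differences in the probe sets used. Tpx2, which activates Aurka on microtubules, gave 0.06 in Ube2m and -0.05 in Ube2f against control, Nusap1, which bundles spindle microtubules, 0.16 and 0.01, and Hmmr, another microtubule-associated protein, 0.00 and -0.12. Each had an SE of 0.09 to 0.11, and none of the 3 passed in any comparison, with or without adjustment of limma's p. Probe sets of Tpx2 disagreed, a dimmer one reading 835, 783 and 601 in control, 793, 882 and 940 with Ube2m shRNA and 508, 525 and 636 with Ube2f shRNA. Its differences were 0.24 and -0.39 from control and 0.64 between the hairpins, whose arrays did not overlap.

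Of the 7 genes of condensin and chromosome structure, Cdca2 rose over control with Ube2m shRNA and Top2a differed between the hairpins. Of all genes 3.59% rose with Ube2m shRNA, and 6.37% were higher in Ube2m than in Ube2f. Cdca2 (Repo-Man), which brings the phosphatase PP1 to anaphase chromosomes, read 454, 659 and 727 in control, 939, 877 and 1091 with Ube2m shRNA and 651, 695 and 908 with Ube2f shRNA. The Ube2m arrays were above control but not above all of Ube2f, and control replicate 1 was the lowest of the 9. The log2 difference from control was 0.67 (SE 0.18, adjusted p = 0.0361), the largest of the 48. It was 0.47 (adjusted p = 0.132) without control replicate 1, and 0.43 (adjusted p = 0.0777) with the gene's probe sets averaged, one of which gave 0.08. Top2a, the topoisomerase that untangles sister chromatids, read 7731, 6212 and 7106 in control, 8416, 8706 and 8706 with Ube2m shRNA and 6443, 6462 and 7439 with Ube2f shRNA. It stood 0.35 above Ube2f (SE 0.11, adjusted p = 0.043) and 0.30 above control (SE 0.11, adjusted p = 0.0976). A dimmer Top2a probe set gave 0.03 over Ube2f and 0.26 over control, and with probe sets averaged the difference from Ube2f was 0.16 (adjusted p = 0.533).

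The condensin subunits, which compact chromosomes, moved less. Over control with Ube2m shRNA, Ncapg and Ncaph gave 0.23 each, Smc2 0.21 and Ncapd2 0.12, none past the threshold. With Ube2f shRNA Ncaph gave 0.27 (SE 0.12, adjusted p = 0.222), its arrays at 3515, 3074 and 2691 lying above control at 2653, 2609 and 2409. A dimmer Ncaph probe set gave -0.02 for Ube2f and -0.05 for Ube2m. Smc4 had the widest spread of the list. Its control arrays read 3164, 4148 and 11398, so that the differences of 0.21 for Ube2m and 0.62 for Ube2f had an SE of 0.38 each. The 2 other Smc4 probe sets gave -0.20 and -0.10 for Ube2m and -0.03 and 0.10 for Ube2f.

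The cytokinesis genes were the one functional group with a median below 0 in Ube2m against control, at -0.14 over 4 genes, and none passed, with or without adjustment. Anln (anillin), the scaffold of the contractile ring, read 10850, 11068 and 10330 in control, 9629, 9612 and 9970 with Ube2m shRNA and 10342, 11013 and 10232 with Ube2f shRNA. All 3 Ube2m arrays were below the other 6, for a difference from control of -0.14 (SE 0.09, adjusted p = 0.35), while a dimmer Anln probe set gave 0.21. Prc1, which bundles the midzone microtubules, gave -0.17 in Ube2m and -0.20 in Ube2f, its Ube2f arrays at 3154, 3055 and 3286 lying below control at 3812, 3493 and 3625 (SE 0.10, adjusted p = 0.292). Racgap1, the partner of Kif23 in centralspindlin, gave -0.13 in both. A second Prc1 probe set gave -0.07 in Ube2m and -0.02 in Ube2f, and a second Racgap1 probe set -0.01 and -0.15. Ect2, the exchange factor that activates RhoA, gave 0.25 in Ube2m (SE 0.12, adjusted p = 0.237) and 0.13 in Ube2f. Genes with a part in cytokinesis stood in other lists too, with Kif23 at 0.35, Plk1 at 0.15 and Cep55 at 0.60 in Ube2m against control. Whether the 4 genes listed here differed from the other mitotic genes was not tested.

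Of the 3 anaphase genes none passed in limma, and Pttg1 alone was under 0.05 without adjustment, in Ube2m against control. Without adjustment 9.27% of all genes were higher there. Pttg1 (securin) read 7627, 8417 and 7760 in control and 11057, 9862 and 9083 with Ube2m shRNA, without overlap, for a difference of 0.33 (SE 0.12, adjusted p = 0.114). Cdc20, the activator of the anaphase-promoting complex, read 20742, 20956 and 15323 with Ube2m shRNA against 15005, 16693 and 14577 in control, a difference of 0.29 (SE 0.15, adjusted p = 0.262), with replicate 3 inside the control range. Espl1 (separase), whose promoter letters are printed above, gave 0.04 in Ube2m and -0.20 in Ube2f (SE 0.16 each). Ube2f values of Pttg1 and Cdc20 were 0.13 and 0.12.

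Other probe sets of the same genes gave a second reading of the same RNA. The 48 genes had 117 probe sets, of which 100 reached the brightness needed for a test, and 33 genes had at least 2 such probe sets. Among the 52 that had not been chosen, Ube2m against control was above 0 in 43, with a median of 0.27, Ube2f against control in 34, with a median of 0.10, and Ube2m against Ube2f in 41, with a median of 0.16. Of these 52, 14 read at least 0.5 (log2) lower on control replicate 1 than the mean of control replicates 2 and 3, as did 2 of the 48 chosen ones, Cdca2 (-0.59) and Smc4 (-1.12). One Kif2c probe set read 278 there against 1009 and 730, for a difference from control of 0.85 in Ube2m and 0.56 in Ube2f. Another Kif2c probe set, at 1279, 1593 and 1241 in control and 2066, 2032 and 1640 with Ube2m shRNA, gave 0.48. The part that RNA quality on control replicate 1 had in these readings was not tested.

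**Figure D5:**
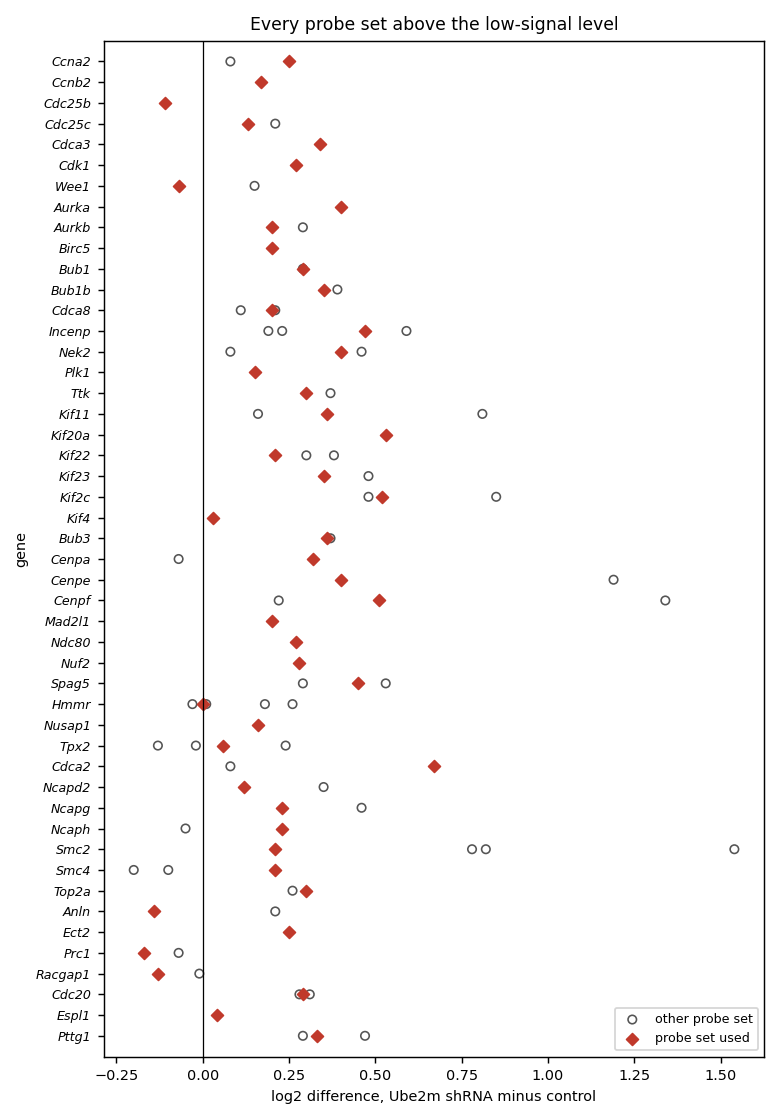
Log2 difference of Ube2m shRNA from control (horizontal axis, 3 arrays per group) for each of the 48 genes (rows), with a red diamond for the probe set used and open circles for the 52 other probe sets above the low-signal level. Of the 52 circles 43 lie right of 0. The farthest, at 1.54, is a Smc2 probe set reading 5.60 on control replicate 1, against 130 and 254 on replicates 2 and 3.

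A wider list of 83 other mitotic genes gave 73 tested genes with a smaller median shift. Against control 5 rose and 2 fell with Ube2m shRNA, the median being 0.09, and 2 rose and 2 fell with Ube2f shRNA, the median being 0.04. Of all genes tested 3.59% rose and 6.12% fell with Ube2m, and 2.23% and 2.96% with Ube2f, so that the Ube2f counts were near the background. Dlgap5, which stabilizes spindle microtubules near chromosomes, read 698, 899 and 706 in control, 1416, 1580 and 1264 with Ube2m shRNA and 975, 936 and 940 with Ube2f shRNA, a rise of 0.88 with Ube2m (SE 0.13, adjusted p = 0.00132). Cep55, which acts at the midbody in the last step of cytokinesis, rose by 0.60 (SE 0.10, adjusted p = 0.003), from 2525, 2934 and 2869 to 4107, 4148 and 4338. Both kept their call without any one of the 9 arrays, but with each array centred on its own median Dlgap5 passed and Cep55 did not (0.51, adjusted p = 0.0974). Troap (0.87, adjusted p = 0.0389), Zwint and the kinetochore protein Ska1 (0.47, adjusted p = 0.0436) were the other rises with Ube2m, and Mad1l1, a checkpoint protein (-0.70, adjusted p = 0.0351), and Psrc1 (-0.43, adjusted p = 0.0164) the falls. The rises with Ube2f shRNA were Ska1 (0.56, SE 0.13, adjusted p = 0.0292) and the chromatin protein Hmgb2 (0.51, SE 0.13, adjusted p = 0.0475), and the falls Zwint and Kntc1. With probe sets averaged Ska1 gave 0.01 for Ube2m and 0.22 for Ube2f (adjusted p = 0.531), Mad1l1 -0.39 (adjusted p = 0.356) and Psrc1 -0.24 (adjusted p = 0.329). Over the 9 fits that leave out 1 array Troap and Ska1 passed in 2, Zwint in 3, Mad1l1 in 4 and Psrc1 in 7 for Ube2m, and Ska1 in 3 and Hmgb2 in 2 for Ube2f.

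Zwint, a kinetochore protein that docks the checkpoint complex of Zw10, Zwilch and Kntc1, moved in opposite directions. It read 4181, 4778 and 3954 in control, 5926, 5641 and 5559 with Ube2m shRNA and 2245, 2418 and 2004 with Ube2f shRNA, with no overlap among the 3 groups. The differences were 0.41 for Ube2m (SE 0.11, adjusted p = 0.0318), -0.95 for Ube2f (SE 0.11, adjusted p = 3.88e-04) and 1.36 between them (SE 0.11, adjusted p = 5.73e-06). Averaging the 7 Zwint probe sets gave 0.72, -0.12 (adjusted p = 0.678) and 0.83, so that the fall with Ube2f shRNA did not hold over all its probe sets. Kntc1 fell with Ube2f shRNA by 0.51 on the log2 scale (SE 0.13, adjusted p = 0.0357), passing in 4 of those 9 fits. Zwilch was lower in Ube2m, at 806 to 985, than in Ube2f, at 1384 to 1538 (-0.75, SE 0.12, adjusted p = 0.00162). Of the 73 genes 5 were higher in Ube2m than in Ube2f and 2 lower, where 6.37% and 9.38% of all genes were. Besides Zwint and Zwilch these were Dlgap5, Cep55, Kif18b and Arhgap11a, all higher, and Psrc1, lower.

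Upstream of these genes, 22 factors that control cell cycle transcription were tested, of which 3 rose and 1 fell with Ube2m shRNA (3.59% and 6.12% of all genes) and 0 passed with Ube2f shRNA (5.19% of all genes) in limma. Without adjustment 3 were higher and 1 lower with Ube2f shRNA at p under 0.05, where 9.75% and 10.5% of all genes were. Lin54, the subunit of DREAM that binds CHR letters, rose by 0.60 (SE 0.12, adjusted p = 0.00908), from 826, 902 and 795 to 1401, 1285 and 1174. The other rises were the histone-binding DREAM subunit Rbbp4 (0.37, SE 0.11, adjusted p = 0.0463) and the activator E2f2 (0.87, SE 0.24, adjusted p = 0.0378), the latter dim, at 69.1 to 117 in control and 148 to 200 with Ube2m shRNA. They passed in 2 and 5 of the 9 fits that leave out 1 array. Rbl1 (p107), a pocket protein of DREAM, fell by 0.48 on the log2 scale (SE 0.11, adjusted p = 0.0154), from 1260, 1316 and 1310 to 969, 909 and 901. With Ube2f shRNA it read 1662, 1502 and 1810, 0.35 above control (adjusted p = 0.0807), and the hairpins differed by -0.83 (adjusted p = 2.72e-04). The calls for Lin54 and Rbl1 did not hold with probe sets averaged (adjusted p = 0.1 and 0.356). Foxm1 gave -0.28 (SE 0.17, adjusted p = 0.335) and Mybl2 (B-Myb) 0.14 (SE 0.12, adjusted p = 0.528) with Ube2m shRNA. Between the hairpins 2 of the 22 factors were higher in Ube2m and 3 lower, where 6.37% and 9.38% of all genes were. Rb1 and E2f2 were higher, and Rbl2 and E2f1 were lower beside Rbl1. Over the 9 fits that leave out 1 array Rbl2 gave -0.85 to -0.70 and passed in 9. Rb1 gave 0.39 to 0.65 and passed in 4, E2f1 -0.66 to -0.46 in 4, and E2f2 0.72 to 0.96 in 5.

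Of the 16 genes of the anaphase-promoting complex and its partners 0 passed against control with either hairpin in limma (unadjusted, 4 higher and 3 lower with Ube2m, 0 and 2 with Ube2f). The unadjusted shares of all genes were 9.27% higher and 15.5% lower with Ube2m, and 9.75% and 10.5% with Ube2f. Between the hairpins Ube2c, the E2 enzyme that starts its ubiquitin chains, was higher in Ube2m (0.43, SE 0.13, adjusted p = 0.035) and Anapc4 lower (-0.41, SE 0.10, adjusted p = 0.0114). In that comparison 6.37% of all genes were higher and 9.38% lower. Genes of G1/S and DNA replication, the earlier phase of the cycle, had a median difference of 0.00 against control with both hairpins over 48 genes. Of these only Mcm2, a subunit of the replicative helicase, passed with Ube2m shRNA, falling (-0.40, SE 0.10, adjusted p = 0.0267), and only Orc2, of the origin recognition complex, with Ube2f shRNA, also falling (-0.43, SE 0.11, adjusted p = 0.0443). Of all genes 6.12% fell with Ube2m and 2.96% with Ube2f, so that 1 of 48 was under the background in both. Mcm2 passed in 5 and Orc2 in 2 of the 9 fits that leave out 1 array, and with each array centred on its own median neither passed (adjusted p = 0.138 and 0.195). Dbf4 (0.36, adjusted p = 0.0161) and Ccne1 (0.65, adjusted p = 0.0139) were higher in Ube2m than in Ube2f, although Dbf4 gave -0.07 with its probe sets averaged. Between the hairpins these 2 of 48 were higher and 0 lower, where 6.37% and 9.38% of all genes were.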

How the data were processed

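RNA of mouse NIH 3T3 cells was measured on 9 arrays, 3 per shRNA group. The values deposited by the authors were used as intensity, the linear signal of each of 45101 probe sets. MAS5 made them, per the submitters' processing notes, with version and settings not given in the sources used. Per the labels' protocols, biotinylated cRNA came from 6 ug of Trizol-extracted RNA. Arrays count no reads, so the number of arrays limits precision.

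The 64 control probe sets, 932 assigned to several genes and 9160 without a gene were left out. One probe set per gene (highest mean over 9 arrays) was kept, and genes were tested if their mean log2(signal + 16) reached 6.12, a signal of 53.8. The constant makes small changes of dim genes look smaller. The fit used limma 3.58.1 under R 4.3.3, with group means estimated from the 9 arrays together and an intensity trend in eBayes. All p-values are two-sided, adjusted by Benjamini-Hochberg over 10613 genes in each of 3 comparisons. For 3 against 3 arrays no test of single genes outside this fit was used. In data simulated for Ube2m against control, 18 of 100 genes changed by 0.5 (log2) and 74 of 100 changed by 1 were recovered, with 5 false calls. The simulated noise was independent for each gene and array, and fewer genes were changed than passed in the data. The shares recovered may therefore not hold for the real fit.

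The genes and the lists were chosen with earlier results of these data known. Named with values are genes past the threshold and the smallest p and largest changes of each functional group. Of other lists, genes past the threshold are named, some of those between the hairpins without all their values. Foxm1, Mybl2, and array values beyond these, were picked for their role. Replicate numbers were not taken to pair arrays, since the deviations of same-numbered arrays correlated at 0.00 to 0.56. Between groups, the replicate 3 arrays correlated at 0.32 to 0.56 with each other and at -0.39 to -0.06 with arrays of other numbers. The main fit had no term for replicate 3, and counts from a fit with one are given below. Alternatives changed the constant, filter, scaling, probe set choice, batch terms, the arrays in the fit and the trend.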

Additional observations from a re-analysis of the deposited data

How the results depend on the processing

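Leaving out 1 array at a time gave 0 to 7 genes past the threshold in Ube2m against control (5 with all arrays), 0 to 2 in Ube2f against control (0) and 1 to 8 in Ube2m against Ube2f (8). In the same order it gave 388 to 1177, 195 to 583 and 1017 to 1813 of all genes (1031, 551 and 1672 with all arrays), and medians of the 48 genes of 0.23 to 0.27, 0.00 to 0.08 and 0.15 to 0.24. Centring each array on its own median gave 0 genes of the list in each comparison, 525 (124 higher, 401 lower), 222 (50 and 172) and 868 of all genes, and list medians of 0.16 and 0.01 against control, where the median of all genes tested was -0.12 and -0.05. Centring on the median of the genes tested, chosen after seeing the data, gave 11, 0 and 11 genes of the list, splits over all genes of 534 higher and 432 lower, 240 and 307, and 856 and 745, and list medians of 0.33 for Ube2m against control and 0.25 between the hairpins. Quantile normalization gave 9 genes in Ube2m against control, where 9.53% of all genes passed. No filter on low signals gave 1 there and 4 between the hairpins (4.28% and 7.62% of all genes), and no intensity trend 1 and 3 (7.53% and 14.3%). With probe sets averaged the counts were 0, 0 and 4 (607, 271 and 1109 of all genes) and the medians 0.10 for Ube2f against control and 0.15 between the hairpins. Without probe sets open to related transcripts 3 genes passed in Ube2m against control (9.72% of all genes). The medians were then 0.03 for Ube2f against control and 0.15 between the hairpins. A replicate block gave 18, 2 (Plk1 and Wee1, lower) and 14 genes, and 1866, 1225 and 2493 of all genes, and not every array correlated best with its own number. Replicate 3 as a batch term gave 20, 4 and 15 genes, and 2118, 1461 and 2714 of all genes. Replicates 1 and 2 alone gave 13, 4 and 13 genes, 1747 and 1121 of all genes against control, and medians of 0.30 for Ube2m against control and 0.14 between the hairpins. Fitting only the groups compared gave 350 of all genes in Ube2f against control. The cause of these differences was not tested. Averaging probe sets reversed Dbf4 (-0.07) and E2f1 (0.06) in Ube2m against Ube2f. In Ube2m against control 39 to 44 of the 48 genes were above 0 under each scaling tried, against 24 to 28 in Ube2f against control. Of the values of named genes under other settings 3530 kept their side of the threshold, 317 lost it, 93 gained it, 103 were differences short of the threshold that changed sign, and 2 reversed. Probe sets near the background limit the reading of dim genes.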
